A study of Homo sapiens with 9 samples.

Results

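A set of 9 genes is described here whose products move anticancer drugs, copper and platinum compounds across cell membranes. They were picked by symbol and comprise 6 drug efflux pumps of the ATP-binding cassette (ABC) family (ABCB1, ABCC1, ABCC2, ABCC3, ABCC4 and ABCG2), the copper-exporting ATPases ATP7A and ATP7B, and the copper importer SLC31A1. All 9 were found among the 60649 gene identifiers of the count table, and 8 had enough reads to be tested. The cells were OVCAR5, an established human epithelial ovarian cancer line, grown in RPMI-1640 with serum, transduced with lentivirus and selected with puromycin. There were 3 libraries labelled NC (the control, per the labels), 3 labelled SM2 and 3 labelled SM4, and the labels give SM2 and SM4 as knockdowns of METTL3, the catalytic subunit of the complex that writes N6-methyladenosine (m6A) on RNA. No drug treatment other than puromycin is given for any group. The control is given as parental cells in the design text and as a control hairpin in the methods of the study, the labels do not name the hairpin behind SM2 or SM4, and whether the selected lines were pools or clones is not stated. The source field names OVCAR6, OVCAR7 and OVCAR8 for the libraries labelled SM4, whereas the cell line field gives OVCAR5 throughout.

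ABC pumps use the energy of ATP to push substrates out of the cell. ABCB1 (P-glycoprotein), ABCC1 (MRP1) and ABCG2 (BCRP) are the classic multidrug pumps, while ABCC2, ABCC3 and ABCC4 (MRP2, MRP3 and MRP4) export organic anions, including conjugates with glutathione or glucuronide. Cisplatin and carboplatin are not classic substrates of P-glycoprotein, and their passage has been linked to copper proteins, since SLC31A1 (CTR1) takes up copper and has been implicated in platinum uptake, and ATP7A and ATP7B pump copper into the secretory pathway and out of the cell.

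Before the transporters, the libraries were checked. Totals ranged from 44103272 to 63693728 counts per library, so that a level of 1 CPM (counts scaled to the library total) stood for 44.1 to 63.7 reads. The targeted gene, METTL3, was measured at 36.3, 34.4 and 36.6 CPM in the NC libraries, at 37.1, 39.8 and 40.0 CPM in those labelled SM2, and at 60.6, 57.5 and 62.4 CPM in those labelled SM4. It was therefore not lower under either knockdown label, and it was higher in SM4 by a log2 fold change of 0.75 (SE 0.0539, adjusted p = 2.21e-09), with 0.12 in SM2 (SE 0.0549, adjusted p = 0.120). In a knockdown design the control should hold the most METTL3, a place that SM4 and not NC takes here, and the fold changes listed by the study also have METTL3 lower in both knockdowns than in their control. For its first and second hairpin the study lists log2 fold changes of -0.75 and -0.63 for METTL3 and 0.86 and 0.40 for ABCC4. Outside the transporters, it lists 1.89 and 1.34 for LOXL2. To these digits, NC and SM2 relative to SM4 gave the same values here. The listed values thus match SM4 as the control, with NC and SM2 as the knockdowns. Whether the labels NC and SM4 were exchanged cannot be settled from the labels alone. The groups are therefore called by their labels, and NC is used as the reference only because the labels name it as the control. With SM4 as the reference every direction of SM4 against NC and SM4 against SM2 turns. If SM4 was the control, SM2 against NC compares different knockdowns. SM2 replicate 3 stood apart, with a chi-square per degree of freedom of 16.7 and 13.8 against the other SM2 libraries, compared with 4.21 to 6.04 for every other pair within a group. All 6 epithelial markers (EPCAM, KRT8, KRT18, KRT19, CDH1 and CLDN4) exceeded 1 CPM, with a summed level of 10218 to 10614 CPM in NC, 11592 to 12107 in SM2 and 11173 to 11863 in SM4. Of 5 leukocyte markers only CD14 exceeded 1 CPM, and it took the sum from 5.43 to 6.32 CPM in NC to 8.13 to 8.94 in SM2 and 10.0 to 10.6 in SM4, with MS4A1 at 0 and PTPRC, CD3E and CD68 below 1 CPM. The endothelial sum never exceeded 1.81 CPM, with KDR at 0, and the fibroblast sum of 21.3 to 26.5 CPM came mostly from COL1A1. The part of these shifts in the results below was not tested, and in bulk RNA fewer cells that express a gene and less RNA per cell cannot be told apart.

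Bases upstream of an annotated start site are shown for 3 of the genes. These are the pump without a single read (ABCB1) and the called genes with the lowest (ABCC4) and the highest (ATP7B) log2 fold change relative to NC. With SM4 as the reference ABCC4 is instead the gene with the highest value. Each run is the 250 bases before an annotated start site in RefSeq, build GRCh38.p14, read 5′ to 3′ on the strand of the gene. Capitals mark a GC box (GGGCGG) or a CCAAT box (CCAAT), on either strand. The positions are chr7:87600885-87601134, chr13:95301452-95301701 and chr13:52012009-52012258, all on the minus strand.
ABCB1: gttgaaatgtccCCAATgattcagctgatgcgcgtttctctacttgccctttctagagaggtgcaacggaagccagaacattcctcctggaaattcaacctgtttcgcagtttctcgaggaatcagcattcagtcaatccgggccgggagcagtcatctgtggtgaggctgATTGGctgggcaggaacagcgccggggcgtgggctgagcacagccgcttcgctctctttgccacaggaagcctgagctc
ABCC4: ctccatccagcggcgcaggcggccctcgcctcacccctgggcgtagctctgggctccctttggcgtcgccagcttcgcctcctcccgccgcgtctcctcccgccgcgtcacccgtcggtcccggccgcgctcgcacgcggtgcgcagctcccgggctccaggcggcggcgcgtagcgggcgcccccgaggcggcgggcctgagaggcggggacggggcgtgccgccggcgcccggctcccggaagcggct
ATP7B: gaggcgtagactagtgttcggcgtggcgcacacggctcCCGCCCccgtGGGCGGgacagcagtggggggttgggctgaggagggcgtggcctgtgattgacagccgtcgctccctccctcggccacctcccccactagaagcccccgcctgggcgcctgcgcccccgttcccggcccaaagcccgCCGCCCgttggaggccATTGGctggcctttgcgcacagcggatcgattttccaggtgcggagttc
The ABCB1 run held 2 CCAAT boxes and no GC box, the ABCC4 run held neither, and the ATP7B run held 3 GC boxes and 1 CCAAT box. The start behind the ATP7B run lay 558 bases from that of the canonical transcript in GENCODE, and those of ABCB1 and ABCC4 coincided with theirs. The annotated span of the ABCB1 gene extends beyond its run, and those of ABCC4 and ATP7B reach into theirs.

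RefSeq windows of 300 bases, with 250 before and 50 after the start, were available for 7 of the 9 genes, and ABCC1 and ABCC3 had none. A GC box was found in 2 of the 7 (ATP7B and SLC31A1) and in 45.0% of all 35116 windows, and a CCAAT box in 3 of the 7 (ABCB1, ATP7B and SLC31A1) and in 34.6% of all. The core of the metal response element (TGCACNC or TGCGCNC), the site of the metal sensor MTF1, was found in the windows of ABCC2, ABCC4, ABCG2 and ATP7B and in 29.6% of all windows. The core of the antioxidant response element (TGACNNNGC) was found in ABCC4 alone among the 7 and in 13.3% of all, and the core of the xenobiotic response element (GCGTG) in 6 of the 7, all but ABCC2, and in 36.5% of all. Each motif was searched on both strands. The ABCC4 window was the richest in G and C, at 79.7%, and ABCC2 the poorest, at 45.0%, around a median of 58.7% over all windows.

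The pentamer GGACT is the commonest sequence context of m6A. It occurred 13 times in the 6504 bases of the canonical ABCC1 transcript and 13 times in the 6598 bases of ATP7B, which is 2.00 and 1.97 per kilobase and above 90.1% and 89.6% of 20046 coding transcripts. At the other end stood ABCC2 with 0.517, ATP7A with 0.589, ABCC4 with 0.683 and ABCG2 with 0.713 per kilobase, all under the median of 0.925. The other genes called against NC, ABCC3 and SLC31A1, stood at 1.41 and 1.05 per kilobase, so that 3 of these 5 genes were above the median and 2 (ABCC4 and ABCG2) below it. Methylation itself was not measured in these libraries.

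ABCB1 (ENSG00000085563.15, chr7:87503017-87713323 of GRCh38) had 0 counts in all 9 libraries, which allows a level of up to 0.0475 to 0.0684 CPM per library when 3 counts are taken as the limit for a count of 0. The gene that lies over it on the opposite strand, RUNDC3B, had 6 to 19 counts. ABCB4, its closest relative, had 0 to 13 counts and was not tested. P-glycoprotein mRNA was thus not detectable at this depth under any label.

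Per length of exon, the order of the other 8 genes was nearly the same in the 3 groups. In the NC libraries ABCC1 stood at 42.9 ± 0.288 CPM per kilobase (SD, n = 3), ABCC3 at 34.8 ± 1.01, SLC31A1 at 16.2 ± 0.982, ABCG2 at 4.68 ± 0.218, ABCC4 at 3.24 ± 0.0855, ATP7A at 0.421 ± 0.0277, ATP7B at 0.253 ± 0.0200 and ABCC2 at 0.0925 ± 0.00612. No neighbours in this order overlapped in NC. Over all 9 libraries ABCC1 lay above 92.4% of the 13785 coding genes tested, ABCC3 above 89.9%, SLC31A1 above 77.5% and ABCG2 above 49.4%, while ABCC4 exceeded 36.4%, ATP7A 15.7%, ATP7B 14.6% and ABCC2 5.60%. Only the copper ATPases traded places. In SM2 the level of ATP7B, 0.412 CPM per kilobase, was above the 0.359 of ATP7A, and in SM4 it was 0.347 against 0.380, with overlapping libraries in both groups. These levels were divided by the merged length of all annotated exons, which is 28126 bases for ATP7A and 18854 for ATP7B against canonical transcripts of 8492 and 6598 bases. With the canonical length, a choice made after the data were seen, ABCC3 and ABCC1 overlapped in each group, with NC means of 58.8 and 57.6 CPM per kilobase, and the mean of ATP7A was above that of ATP7B in each group, with overlap in SM2 alone. The places of the other genes were unchanged by it.

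**Figure D1:**
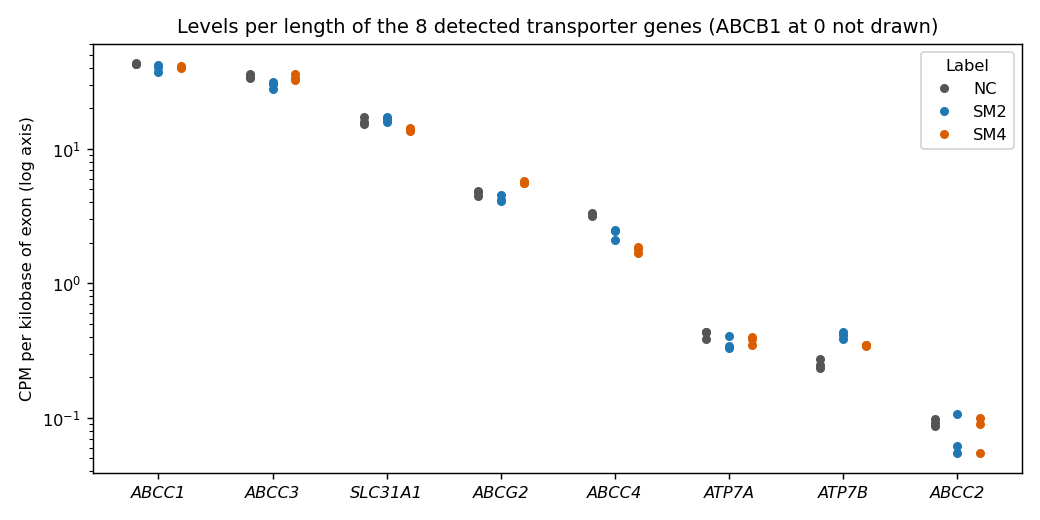
Each point is 1 library, with the level in CPM per kilobase of merged exons on a log axis and the 8 detected genes in order of their level, coloured by label (NC, SM2, SM4). ABCC1 and ABCC3 lie at 27.8 to 43.2, SLC31A1 at 13.6 to 17.3, and ABCC2 lowest at 0.0545 to 0.106 CPM per kilobase.

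Whether the transporters differed between labels was asked with edgeR's quasi-likelihood F test over 19674 genes, with p-values adjusted over all of them. In SM2 against NC, 3 of the 8 tested genes passed an adjusted p of 0.05, where 22.3% of all genes tested passed. Of these 3, ATP7B was higher (12.0% of all genes) and ABCC4 and ABCC3 were lower (10.3% of all genes). In SM4 against NC, 4 of the 8 passed, where 21.2% of all genes did, with ATP7B and ABCG2 higher (11.0% of all genes) and ABCC4 and SLC31A1 lower (10.2% of all genes). The direct comparison of SM4 with SM2, which tests the difference itself, called 4 of the 8, where 12.8% of all genes were called, with ABCG2 and ABCC3 higher in SM4 (6.04% of all genes) and ABCC4 and SLC31A1 lower (6.76% of all genes). The median log2 fold change of the 8 genes was -0.17, -0.11 and 0.05 in these comparisons, beside -0.0037, -0.0011 and -0.00022 over all genes. With 8 genes, each of these counts is a description and says little about the group as a whole. Both comparisons with NC used the same control libraries. The labels do not say that the libraries of a group came from separate cultures, so the p-values measure the spread between these libraries, which may be technical.

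**Figure D2:**
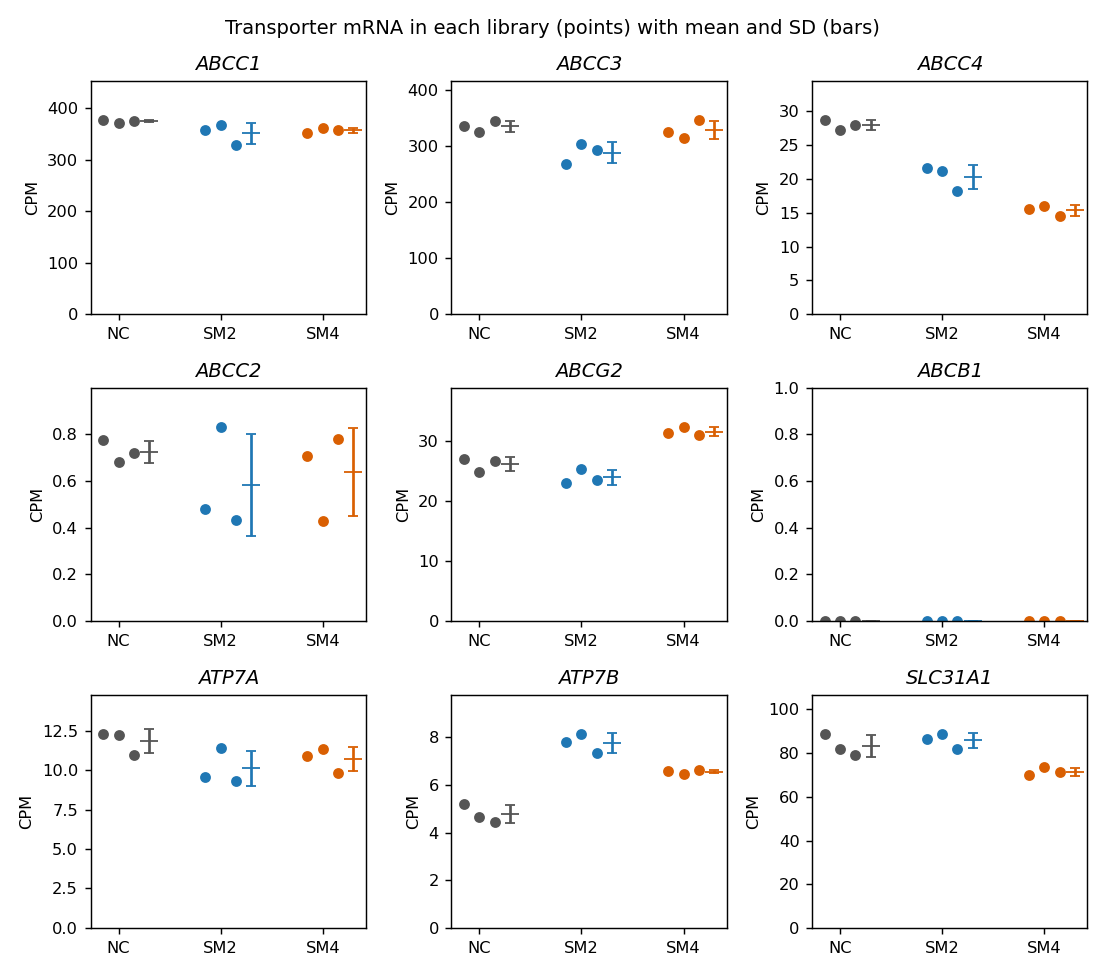
Each panel shows 1 gene, with TMM-normalized CPM on an axis from 0, each library as a point and the mean ± SD (n = 3) as a bar beside it, by label. ABCC4 falls from 27.2 to 28.7 CPM in NC to 14.5 to 16.0 CPM in SM4, ATP7B is higher in all 6 libraries labelled SM2 or SM4 than in NC, and ABCB1 is at 0 throughout.

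Among the efflux pumps, ABCC4 moved furthest. MRP4 exports cyclic nucleotides, prostaglandins and nucleotide analogues. Its gene (ENSG00000125257.16, chr13:95019835-95301475) was measured at 28.7, 27.2 and 27.9 CPM in NC, at 21.5, 21.1 and 18.2 CPM in SM2, and at 15.5, 16.0 and 14.5 CPM in SM4. The 3 groups did not overlap, and SM2 lay between the others. In SM2 the level fell by 27.4% relative to NC (95% confidence interval -34.4% to -19.5%, log2 fold change -0.46, SE 0.0709, adjusted p = 6.24e-05). Relative to NC again, the level in SM4 fell by 45.0% (-50.4% to -39.0%, log2 fold change -0.86, SE 0.0714, adjusted p = 1.78e-08). The step from SM2 to SM4 was also past the threshold, with a log2 fold change of -0.40 (SE 0.0726, adjusted p = 0.000652). The study lists ABCC4 in the other direction, higher in both METTL3 knockdowns and lower under METTL3 overexpression. Its knockdown values, 0.86 and 0.40, are those of NC and SM2 relative to SM4 here. The falls relative to NC therefore cannot be read as an effect of METTL3 knockdown. The lowest of the SM2 values came from SM2 replicate 3, and without that library the log2 fold change in SM2 was -0.38 (adjusted p = 9.95e-05).

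ABCC3 was lower in SM2 alone. MRP3 is best known for exporting glucuronides and bile salts across the basolateral membrane of epithelia. The gene (ENSG00000108846.16, chr17:50634777-50692253) was measured at 336, 325 and 344 CPM in NC, at 267, 303 and 293 CPM in SM2, and at 325, 314 and 346 CPM in SM4. All SM2 libraries were below all NC and all SM4 libraries, while SM4 and NC overlapped. Relative to NC the level in SM2 fell by 14.1% (-20.0% to -7.73%, log2 fold change -0.22, SE 0.0492, adjusted p = 0.00253). The log2 fold change in SM4 was -0.03 (95% confidence interval -0.13 to 0.07, adjusted p = 0.762). SM4 was higher than SM2 by 0.19 on the log2 scale (SE 0.0491, adjusted p = 0.0121), a call that was lost without SM2 replicate 1 (0.14, adjusted p = 0.0634) or without SM4 replicate 3 (0.15, adjusted p = 0.0964).

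ABCG2 took the opposite course, with its highest levels in SM4. BCRP works as a dimer and exports topotecan, mitoxantrone and urate. Its gene (ENSG00000118777.12, chr4:88090150-88231628) stood at 27.1, 24.8 and 26.8 CPM in NC, at 23.1, 25.4 and 23.5 CPM in SM2, and at 31.4, 32.5 and 31.1 CPM in SM4. The SM4 libraries were above all others, and NC and SM2 overlapped. SM4 was higher than NC by 20.7% (10.7% to 31.7%, log2 fold change 0.27, SE 0.0603, adjusted p = 0.00230) and higher than SM2 by 31.7% (20.6% to 43.8%, log2 fold change 0.40, SE 0.0608, adjusted p = 0.000104). SM2 against NC gave a log2 fold change of -0.13 (95% confidence interval -0.25 to 0.0030, adjusted p = 0.162).

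ABCC1, the most abundant of the 9 genes in CPM, passed the threshold in no comparison. MRP1 exports glutathione conjugates and anthracyclines. The gene (ENSG00000103222.20, chr16:15949138-16143257) was measured at 377, 372 and 375 CPM in NC, at 357, 368 and 328 CPM in SM2, and at 351, 362 and 357 CPM in SM4. All 6 libraries labelled SM2 or SM4 were below the 3 NC libraries, but by little, with log2 fold changes of -0.09 in SM2 (95% confidence interval -0.18 to -0.0043, adjusted p = 0.132) and -0.07 in SM4 (-0.16 to 0.02, adjusted p = 0.289). The intervals leave room for a fall of 12.0% in SM2 and 10.5% in SM4, and none of the alternatives tried called either. SM4 and SM2 gave a log2 fold change of 0.02 (-0.07 to 0.11, adjusted p = 0.790), whose sign turned in 3 of the alternatives.

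ABCC2 was close to the limit of the data. MRP2 is the apical counterpart of MRP3 in liver, gut and kidney and has been studied as a cisplatin exporter. Its gene (ENSG00000023839.12, chr10:99782640-99852594) had 22 to 43 counts per library, with levels of 0.776, 0.681 and 0.718 CPM in NC, 0.482, 0.832 and 0.434 CPM in SM2, and 0.707, 0.427 and 0.780 CPM in SM4. The 3 groups overlapped. The log2 fold change was -0.31 in SM2 (95% confidence interval -0.99 to 0.36, adjusted p = 0.556) and -0.19 in SM4 (-0.85 to 0.47, adjusted p = 0.747). These intervals hold anything from a fall by 49.7% to a gain of 28.6% in SM2, so a difference of the size seen for ABCC4 was not detectable at this depth. The sign in SM4 turned without SM4 replicate 2.

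Of the copper exporters, ATP7B was higher than in NC under both other labels. ATP7B is mutated in Wilson disease and, in tumour cells, has been linked to cisplatin sequestration and export. The gene (ENSG00000123191.16, chr13:51930436-52012125) stood at 5.18, 4.67 and 4.44 CPM in NC, at 7.79, 8.15 and 7.34 CPM in SM2, and at 6.56, 6.47 and 6.61 CPM in SM4. No 2 groups overlapped, with SM2 highest and SM4 between. SM2 was higher than NC by 63.3% (40.8% to 89.3%, log2 fold change 0.71, SE 0.102, adjusted p = 3.15e-05) and SM4 by 37.8% (18.8% to 59.8%, log2 fold change 0.46, SE 0.102, adjusted p = 0.00226). The difference between SM4 and SM2, -0.24 on the log2 scale (SE 0.0990, 95% confidence interval -0.45 to -0.04), did not pass the threshold (adjusted p = 0.119), although all 3 SM4 libraries were below all SM2 libraries. With SM4 as the reference, ATP7B was lower in NC (-0.46) and not called in SM2 (0.24), so the rise over NC depends on the reference. Each value rests on 227 to 409 reads per library.

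ATP7A, the Menkes disease copper ATPase, passed in no comparison. The gene (ENSG00000165240.21, chrX:77910690-78050395) was measured at 12.3, 12.2 and 10.9 CPM in NC, at 9.59, 11.4 and 9.32 CPM in SM2, and at 10.9, 11.3 and 9.83 CPM in SM4, so that all groups overlapped. The log2 fold change was -0.23 in SM2 (95% confidence interval -0.42 to -0.03, adjusted p = 0.0940) and -0.14 in SM4 (-0.34 to 0.05, adjusted p = 0.321). Without SM2 replicate 2 the value in SM2 was -0.33 and passed the threshold (adjusted p = 0.0286). These values had the opposite sign to those of ATP7B, and the difference between the paralogues was not tested. ATP7A is the 1 gene of the 9 whose exons overlap those of other genes, sharing 97 bases with PGK1 on the same strand, 382 with the pseudogene C4orf46P2 and 689 with PGAM4 on the opposite strand. PGK1 had 27440 to 38469 counts per library, ATP7A 438 to 715, and how reads in the shared bases were counted is not stated, which leaves the ATP7A values uncertain.

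The importer SLC31A1 was lower in SM4 than under the other labels. Its gene (ENSG00000136868.11, chr9:113221544-113264492) was measured at 89.0, 82.1 and 79.1 CPM in NC, at 86.6, 88.9 and 81.9 CPM in SM2, and at 69.9, 73.5 and 71.2 CPM in SM4. The SM4 libraries were below all others, and NC and SM2 overlapped. In SM4 the level fell by 14.2% relative to NC (-20.3% to -7.56%, log2 fold change -0.22, SE 0.0514, adjusted p = 0.00344) and by 16.6% relative to SM2 (-22.6% to -10.2%, log2 fold change -0.26, SE 0.0514, adjusted p = 0.00139). With SM4 as the reference, SLC31A1 was higher in NC (0.22 on the log2 scale) and in SM2 (0.26). The log2 fold change of SM2 against NC was 0.04 (95% confidence interval -0.07 to 0.15, adjusted p = 0.635). CDC26 overlaps the gene on the opposite strand with no shared exon base, and it was lower in both groups, by -0.31 in SM2 (adjusted p = 0.0280) and -0.36 in SM4 (adjusted p = 0.00987).

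**Figure D3:**
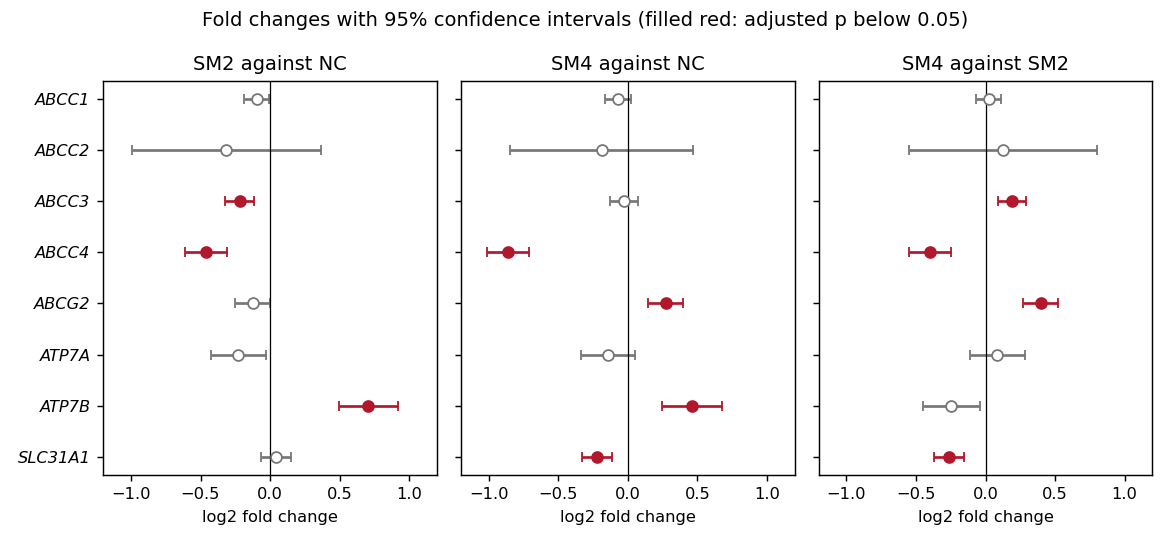
Log2 fold changes of the 8 tested genes (x axis) with 95% confidence intervals, one panel per comparison, filled red where the adjusted p was below 0.05. ABCC4 is to the left of 0 in all 3 panels, ATP7B to the right in both comparisons with NC, and ABCC2 has the widest intervals.

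The transporters thus fell into several patterns over the labels. Relative to NC, ATP7B was higher and ABCC4 lower under both, ABCC3 was lower in SM2, and ABCG2 and SLC31A1 differed from NC in SM4 in opposite directions. The direct comparison called ABCC3, ABCC4, ABCG2 and SLC31A1, and it did not call ATP7B. Read with SM4, the group with the most METTL3, as the reference, the same tests put ABCC4 higher in NC (log2 fold change 0.86) and in SM2 (0.40), SLC31A1 higher in NC (0.22) and in SM2 (0.26), and ABCG2 lower in NC (-0.27) and in SM2 (-0.40). On that reading ATP7B was lower in NC (-0.46) and not called in SM2 (0.24, adjusted p = 0.119), and ABCC3 was lower in SM2 (-0.19) and not called in NC (0.03, adjusted p = 0.762). METTL3 itself was then lower by -0.75 in NC and -0.63 in SM2. Leaving out SM2 replicate 3, which stood apart, left the number called at 3 in SM2, 4 in SM4 and 4 between them. Levels in CPM are relative to the other transcripts of a library, and neither protein nor transport was measured.

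For each of the 5 genes called against NC, the tested gene with the most similar level over the 9 libraries was looked up among 13788 genes. It was CHAF1B for ATP7B (Pearson r 0.991 on log2 CPM), CD44 for ABCC4 (r 0.994), LINC01278 for ABCC3 (r 0.962), E2F2 for ABCG2 (r 0.979) and WIPF3 for SLC31A1 (r 0.975). CD44, a hyaluronan receptor, went from 422 CPM in NC to 375 in SM2 and 332 in SM4, in the same order as ABCC4. CHAF1B, a subunit of a histone chaperone that works at replication forks, went from 20.1 to 23.8 and 22.7 CPM, and the cell cycle transcription factor E2F2 was higher in SM4, at 30.0 CPM, than in SM2, at 21.4 CPM. These are the highest of many correlations over only 9 libraries in 3 groups, and they describe likeness of pattern alone.

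The rest of the ABC family was measured as a first setting for the pumps. Of 42 other ABC genes, 33 could be tested, and in each comparison with NC 9 were higher and 4 lower, which is 39.4% of those tested beside 22.3% and 21.2% of all genes. Their median log2 fold change was 0.0061 in SM2 and 0.04 in SM4. The direct comparison of SM4 with SM2 called 6 of the 33, 4 higher and 2 lower, which is 18.2% beside 12.8% of all genes. ABCG1, which exports cholesterol and other sterols, was higher in both, by 0.96 in SM2 (6.19 to 12.1 CPM, adjusted p = 4.25e-08) and 1.32 in SM4 (15.5 CPM, adjusted p = 2.59e-10). ABCA12, a lipid transporter of the epidermis, was higher by 1.17 in SM4 (5.69 to 12.8 CPM, adjusted p = 6.86e-09). CFTR, the ABC protein that works as a chloride channel, went in opposite directions relative to NC, with 3.37 CPM in NC, 5.54 in SM2 (higher by 0.71 on the log2 scale, adjusted p = 0.000556) and 1.15 in SM4 (-1.56, adjusted p = 2.20e-07). SM4 against SM2 gave -2.27 (adjusted p = 1.87e-09), so that with SM4 as the reference CFTR was higher in both NC and SM2. Among the genes that fell were ABCB6, a porphyrin transporter, by 0.60 on the log2 scale in SM2 (adjusted p = 0.00532), ABCE1, a ribosome recycling factor that transports nothing, by 0.27 in SM2 (adjusted p = 0.000183), and ABCA10 by 0.82 in SM4 (adjusted p = 1.01e-05). Drug pumps of the family were called as well, and 2 are named after their values were seen, ABCC5 (MRP5), higher by 0.29 in SM2 (adjusted p = 0.00228), and ABCC10 (MRP7), lower by -0.19 in SM2 (adjusted p = 0.0280).

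Copper handling was the second setting, since it bears on ATP7A, ATP7B and SLC31A1. Of 25 genes, 24 were tested. In SM2 4 were higher and 6 lower, which is 41.7% of them beside 22.3% of all genes, and in SM4 3 were higher and 9 lower, which is 50.0% beside 21.2%. The medians were -0.07 and -0.11. Between SM4 and SM2 10 of the 24 were called, 4 higher in SM4 and 6 lower, which is 41.7% beside 12.8% of all genes. The genes at both ends were mostly lysyl oxidases, secreted enzymes that need copper and cross-link collagen and elastin and that carry no copper across membranes. LOXL2 was at 70.5 CPM in NC, the highest of the groups, at 48.1 in SM2 (-0.55 on the log2 scale, adjusted p = 1.52e-07) and at 18.9 in SM4 (-1.89, adjusted p = 6.71e-15), so that relative to SM4 it was higher by 1.89 in NC and by 1.34 in SM2. LOX was lower by -0.60 in SM4 (adjusted p = 0.000121), whereas LOXL1 was higher by 0.39 in SM2 (adjusted p = 0.00337) and 0.97 in SM4 (adjusted p = 7.61e-08). STEAP4, a reductase for iron and copper, rose by 0.35 in SM2 (adjusted p = 0.000186) and 0.42 in SM4 (adjusted p = 1.94e-05). CUTC, a copper-binding protein, was lower by -0.44 in SM2 (adjusted p = 0.00110).

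Metallothioneins, small cysteine-rich proteins that bind copper, zinc and platinum, were mostly low or absent, with 5 of 11 tested. MT2A, the most abundant of the genes called, was at 248 CPM in NC, 215 in SM2 (-0.21 on the log2 scale, adjusted p = 0.00846) and 216 in SM4 (-0.20, adjusted p = 0.0120). MT1E was lower in SM4 (-0.28, adjusted p = 0.000565), with -0.03 in SM2 (adjusted p = 0.770). Of the 5 tested, 1 passed in SM2, beside 22.3% of all genes, and 2 passed in SM4, beside 21.2%. All of these were lower. No metallothionein passed in the upward direction in either comparison, where 12.0% and 11.0% of all genes did. With 5 genes tested, that absence says little. The count in SM2 was small enough to depend on 1 library, at 0 without SM2 replicate 2 and 2 without SM2 replicate 3, and that in SM4 was 1 without SM4 replicate 1 or without SM4 replicate 3.

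Among 25 other carriers linked to drug or platinum passage, 21 were tested. In each comparison with NC 3 were higher and 5 lower, which is 38.1% in both, beside 22.3% and 21.2% of all genes. Between SM4 and SM2 5 were called, 3 higher in SM4 and 2 lower, which is 23.8% beside 12.8% of all genes. LRRC8C, a subunit of the volume-regulated anion channels of the LRRC8 family, was lower in both than in NC, by -0.75 in SM2 (28.5 to 16.9 CPM, adjusted p = 3.73e-07) and -0.57 in SM4 (19.1 CPM, adjusted p = 9.04e-06). SM4 and SM2 differed by 0.18 and not past the threshold (adjusted p = 0.141), so that with SM4 as the reference LRRC8C was called in NC alone, as higher. SLC22A3, the organic cation transporter OCT3, was higher by 0.64 in SM2 (adjusted p = 0.000281) and lower by -0.41 in SM4 (adjusted p = 0.0174), where 2 of 3 libraries were below all NC libraries. SM4 against SM2 gave -1.05 (adjusted p = 2.15e-06), so that with SM4 as the reference SLC22A3 was higher in both NC and SM2. Of the organic anion transporting polypeptides, SLCO3A1 was higher by 0.24 in SM2 (adjusted p = 0.000829) and SLCO4A1 lower by -0.33 (adjusted p = 3.73e-05). MVP, the major vault protein once described as a lung resistance protein, was higher by 0.17 in SM4 (adjusted p = 0.00247).

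The last setting was 25 regulators and scaffolds of the pumps, of which 21 were tested. In SM2 3 were higher and 3 lower (28.6% of those tested, beside 22.3% of all genes), and in SM4 4 were higher and 1 lower (23.8%, beside 21.2%). These shares are near those of all genes. The direct comparison of SM4 with SM2 called 5, 3 higher and 2 lower, which is 23.8% beside 12.8% of all genes. Moesin (MSN), which anchors membrane proteins to actin, had the largest change, from 2.14 CPM in NC to 24.1 in SM2 (log2 fold change 3.49, SE 0.133, adjusted p = 5.90e-13) and 11.4 in SM4 (2.41, SE 0.136, adjusted p = 6.11e-11). With SM4 as the reference, MSN was lower in NC, while its mean in SM2 lay above that in SM4. The lipid-sensing nuclear receptor PPARA was higher by 0.33 in SM2 (adjusted p = 0.00584) and 0.41 in SM4 (adjusted p = 0.000782). MTF1, the metal sensor that also belongs to the copper list, was lower by -0.24 in SM2 (adjusted p = 0.00900), radixin (RDX), another actin anchor, by -0.17 in SM2 (adjusted p = 0.00629), and the scaffold NHERF2 by -0.16 in SM4 (adjusted p = 0.0171). The number called fell to 3 in SM2 without NC replicate 1 or without SM2 replicate 2, and to 3 in SM4 without NC replicate 2, NC replicate 3 or SM4 replicate 3.

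**Figure D4:**
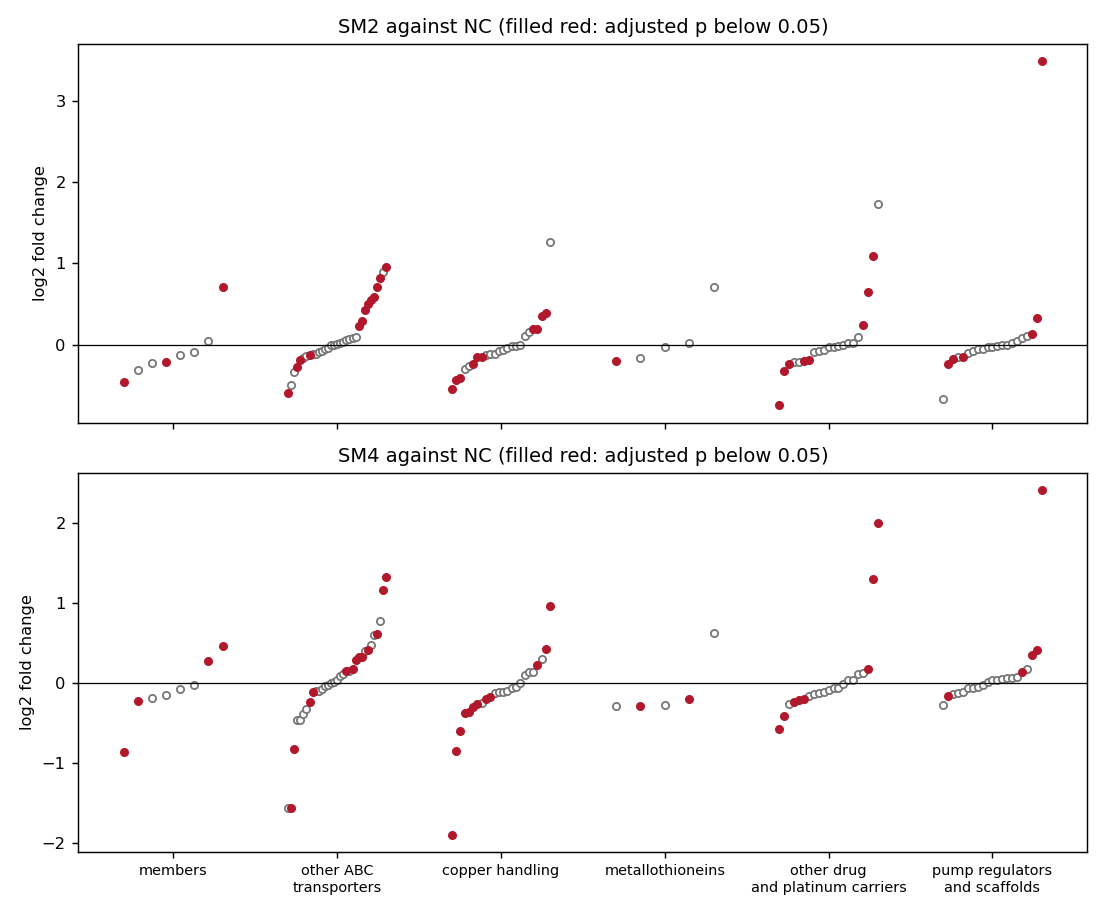
Log2 fold changes (y axis) in SM2 against NC and SM4 against NC for the transporters under study ("members") and the 5 lists of related genes, each gene a point in order of its value and filled red where the adjusted p was below 0.05. The point at 3.49 in SM2 and 2.41 in SM4 is MSN, and the lowest called point in SM4, at -1.89, is LOXL2.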

How the data were processed

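RNA sequencing was analysed from 9 libraries in 3 groups of 3, grouped by their titles. The authors deposited raw counts per gene, with no normalization. The submitters' processing notes name fastp, HISAT2, featureCounts and Subread with the build hg38, and versions, annotation and strand setting are not given in the sources used here. Kit and read layout are given differently in the labels and in the study's methods, and without the strand setting reads of overlapping genes cannot be assigned with certainty. The 9 genes and the lists of related genes were chosen with earlier results of these data known, so their counts are descriptions and not independent support.

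Identifiers were matched without version to GENCODE v44 of the same assembly, which found 60507 of 60649, and the unmatched rest made up no more than 0.0444% of a library. In R 4.3.3 with edgeR 4.0.16, genes were filtered with filterByExpr (19674 kept), scaled by TMM (factors 0.989 to 1.01) and tested with the quasi-likelihood F test on group alone in 1 model of 9 libraries, with Benjamini-Hochberg adjustment over all genes tested and a threshold of 0.05. The model was tested on simulated data first. CPM values are TMM-normalized, with SD over n = 3. Standard errors were taken from the F statistic, and intervals are at the 95% level. Counts carry no molecular identifiers, so limits from a count of 0 cover counting error only. Similarity of pattern used log2 CPM with a prior count of 2. Genes named outside the 9 were METTL3, genes that overlap the exons of the 9, per list up to 2 called genes at each end in each comparison with NC with a mean of at least 1 CPM, and the nearest pattern of each called gene. Cell type markers and the genes that lie over or are related to ABCB1 and SLC31A1 are named as checks. Alternatives were other normalizations, filters and thresholds, a correction for transcript length, a replicate block, DESeq2 1.42.0 (the test of the study), fits of 6 libraries, and leaving out each library. Levels per length of the canonical transcript were added after the data were seen. No protein sequence was used here.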

Additional observations from a re-analysis of the deposited data

Results flagged for a closer look

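For 4 of the 8 transporters tested the fold changes against NC differed between SM2 and SM4 by the direct test of SM4 against SM2 (edgeR's quasi-likelihood F test), which called 12.8% of all genes. The log2 difference of SM4 from SM2 was 0.40 for ABCG2 (adjusted p = 0.000104), with 3 of 3 SM4 libraries above all SM2 libraries, -0.40 for ABCC4 (adjusted p = 0.000652) and -0.26 for SLC31A1 (adjusted p = 0.00139), with 3 of 3 below, and 0.19 for ABCC3 (adjusted p = 0.0121), with 3 of 3 above. Relative to SM4, ABCC4 and SLC31A1 were higher and ABCG2 lower in both NC and SM2, and ABCC3 was lower in SM2 alone. If SM4 was the control, SM4 against SM2 compares a control with a knockdown rather than different knockdowns. The labels give SM2 and SM4 as knockdowns of METTL3, which the level of METTL3 goes against. It stood at 35.8 ± 1.19 CPM in NC, at 38.9 ± 1.64 CPM in SM2 and 60.2 ± 2.48 CPM in SM4 (SD, n = 3; log2 difference of SM4 from SM2 0.63, adjusted p = 7.46e-08), and its part in the differences of the transporters was not tested.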

How the results depend on the processing

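Of the log2 fold changes of the transporters and METTL3 under the alternatives, 473 kept their direction and their side of the threshold, 2 lost the call (ABCC3 in SM4 against SM2), 1 gained one (ATP7A in SM2 against NC) and 7 turned. Directions that turned were all of values not called, namely ABCC1 in SM4 against SM2 (-0.0024 with the length trend removed, -0.0023 with the replicate block as well, -0.022 without SM2 replicate 3), ABCC2 in SM4 against NC (0.038 without SM4 replicate 2) and in SM4 against SM2 (-0.055 without SM2 replicate 3 and -0.037 without SM4 replicate 3), and ABCC3 in SM4 against NC (0.0031 without SM4 replicate 2). With a library left out these values ranged from -0.022 to 0.062, -0.35 to 0.038, -0.055 to 0.47 and -0.068 to 0.0031, respectively. The number of transporters called ranged from 3 to 4 in SM2 against NC, stayed at 4 in SM4 against NC and ranged from 3 to 4 in SM4 against SM2, where an adjusted p of 0.01 left 3. For the lists, copper handling genes called ranged from 7 to 11 in SM2 against NC and from 9 to 17 in SM4 against NC. Other ABC genes called ranged from 10 to 13 and from 9 to 16, respectively. The counts that follow shifted more in relative terms. Metallothioneins called in SM2 against NC were 2, not 1, with the filter at a mean of 1 CPM, with no filter, with the replicate block and with the block and length trend together, and 0 to 2 with a library left out. In SM4 against NC they were 1, not 2, at an adjusted p of 0.01, and 1 to 2 with a library left out. Other carriers called in SM2 against NC were 5, not 8, at an adjusted p of 0.01. Pump regulators called numbered 3 to 7, not 6, in SM2 against NC with a library left out, and in SM4 against NC 3, not 5, at an adjusted p of 0.01, 8 with only the 6 libraries compared, and 3 to 7 with a library left out. Stricter thresholds and fewer libraries call fewer genes by construction, and the cause of the other shifts was not tested. Replicate numbers did not pair the libraries (r of same-numbered deviations -0.053 to 0.045 over 9 pairs). The replicate block changed no call of a transporter, leaving 3, 4 and 4 called. DESeq2 called 4308, 4108 and 2673 genes in all, against 4389, 4173 and 2518. Depth limits ABCC2 and ABCB1, whose levels lay near or below what these libraries can count.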
